A study of Homo sapiens with 30 samples.

Results

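RGS2, DUSP1, DUSP4, DUSP5, DUSP6, SPRY1, SPRY2, SPRY4, SPRED1 and SPRED2 encode brakes on receptor signalling, and their levels and labelling were followed by SLAM-seq. The cells were 22Rv1, an established line grown from a human prostate carcinoma that no longer needed androgen. They are 10 of the 22383 genes of the deposited table. The genes were chosen by name, and each was read from the transcript with the highest summed level; the steep drop of RGS2 after 0 h was known when they were chosen, so RGS2 against 0 h is described and not tested. In SLAM-seq, RNA made after a nucleoside analogue (4-thiouridine, s4U) is added contains that analogue. Alkylation with iodoacetamide then makes it read as C in place of T, so with more T-to-C conversion a larger share of a gene's RNA is newly made. Conversion is a share and does not give the amount of new RNA.

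The 30 libraries form 10 groups of 3. Cells received KB742 at 1.2 µM, KI-ARv-03 at 4 µM or DMSO, each for 2, 4 or 8 h, and a group was collected at 0 h. Both compounds inhibit CDK9, the kinase that releases paused RNA polymerase II. All groups shared the s4U: 800 µM for 30 min before the 0 h collection, and 800 µM again in the new medium that carried the compound or DMSO. Time, medium change, DMSO and longer labelling therefore cannot be told apart in DMSO against 0 h, and the 3 comparisons with 0 h share the same 0 h libraries. Of 9 samples titled 4 h, 8 have a treatment field that names 2 h, and groups follow the title. The dose in the KB742 treatment field also differs from the protocol's, and the protocol text for treatment names DMSO for every sample. No label says that the libraries of a group came from separate cultures, so p-values may measure technical spread only.

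RGS2 speeds the hydrolysis of GTP by Gq and other G protein alpha subunits, which ends signalling from G-protein-coupled receptors. The dual-specificity phosphatases (DUSP) remove phosphates from MAP kinases: DUSP6 acts on ERK in the cytoplasm, while DUSP1, DUSP4 and DUSP5 act in the nucleus. Sprouty (SPRY) and SPRED proteins restrain the path from receptor tyrosine kinases through RAS to ERK, and SPRED1 brings the RAS inactivator neurofibromin to the membrane. Several of these genes are themselves induced by ERK, which makes them negative feedback genes, and some of their messages are known to be short-lived.

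AU-rich motifs in 3′ untranslated regions are known to mark many short-lived messages, so they were looked up in the GENCODE 29 transcript (GRCh38) of each gene, on the transcript strand only. The motif ATTTA occurred in 7 of the 10 genes and in 72.0% of 10615 tested genes with an untranslated region on record. The longer TATTTAT, which contains ATTTA, occurred in 5 of the 10, against 34.6% of those genes. TTATTTATT, which contains both, occurred in DUSP1 alone of the 10, against 8.94%. The Pumilio motif TGTANATA occurred in 5 of the 10, against 29.3%. The window around the first TATTTAT of each gene is shown, or around the first ATTTA where a gene has no TATTTAT. These are letters the comparison of stability motifs rests on, and that motif is in capitals. The DUSP1 window also holds a TTATTTATT, of which only the inner TATTTAT is in capitals.
RGS2: ggtccaaaagcATTTAaaatcaataga
DUSP1: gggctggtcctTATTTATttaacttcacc
DUSP6: ttagagctggaATTTAttataagaatg
SPRY1: actcaagttgaTATTTATagctgatcaat
SPRY2: agtgtaaagaaTATTTATttgaagtttta
SPRY4: gtaaccataggTATTTATtgattggagga
SPRED1: gcatttttgtaTATTTATgcattaggtga
SPRED1 held 24 ATTTA in 5585 bases, RGS2 2 in 687 bases and DUSP6 1 in 2022 bases. DUSP4, DUSP5 and SPRED2 held no ATTTA. A match is a description of the letters, not a site shown to act.

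Levels are rescaled CPM, that is counts scaled by library depth and by a factor between libraries, so a level is a share of the RNA measured. Fewer copies of a message per cell and fewer cells with it cannot be told apart in bulk RNA. The libraries held 1416051 to 3971413 gene reads. In 3′-end libraries a read count is not scaled by transcript length, and on that scale RGS2 had the highest mean level over all libraries at 83.4 CPM. SPRED1 followed at 19.3 CPM, DUSP6 at 7.01, SPRED2 at 5.57, SPRY2 at 4.28, DUSP4 at 2.51 and SPRY1 at 1.79 CPM. The first rank of RGS2 rests on the 0 h group, where its mean was 675 CPM. In the later groups the means were 8.04 to 30.1 CPM for RGS2 and 9.23 to 29.9 CPM for SPRED1. SPRY4 at 1.32, DUSP1 at 0.861 and DUSP5 at 0.114 CPM failed the filter on low counts, so 7 of the 10 were tested for level among 11425 genes. SPRY1 passed only through the 0 h libraries, so its levels against 0 h are described and not tested. DUSP1 had 0 reads in 12 libraries and DUSP5 in 24, and in a library without reads the limit that a count of 0 allows is 3 reads (0.567 CPM over the 3 DMSO libraries at 8 h; counting error only). The 12 luminal prostate markers were all tested and summed to 1533 to 2060 CPM per library, while 15 stromal, endothelial and immune markers summed to 3.11 to 33.2 CPM, with 4 of them at 0 throughout.

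Before any result, 3 libraries stood apart. Replicate 3 at 0 h had a mean correlation of 0.878 with its group and only 1 read of DUSP1, 2 of SPRED2 and 2 of SPRY4, against 15 and 31, 44 and 74, and 16 and 25 in the other two. Replicate 2 of KB742 at 2 h had a mean correlation of 0.870. Replicate 1 of KI-ARv-03 at 4 h had a mean conversion of 1.18%, against 0.382% and 0.422% in its group. Depth was also unequal: the DMSO libraries at 8 h had 1.62, 2.59 and 1.09 megareads after scaling, against 3.29, 4.92 and 3.85 megareads at 0 h. Simulated data of these depths were scored for KB742 against DMSO at 8 h only. Genes given no true difference there had too many small p-values in the unweighted tests. Each call at 8 h is therefore also given with weights for depth, an alternative chosen after seeing the data.

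RGS2 was high at 0 h and low in every later group. At 0 h its level was 635, 667 and 724 CPM. At 2 h it was 29.8, 29.6 and 30.7 CPM with KB742, 35.2, 20.3 and 27.7 CPM with KI-ARv-03, and 32.4, 29.03 and 14.9 CPM with DMSO. No later library came near the 0 h range, and the 3 arms overlapped at 2 h. At 4 h it was 27.5, 22.6 and 21.0 CPM with KB742, 11.2, 9.97 and 10.4 CPM with KI-ARv-03, and 8.80, 17.9 and 13.6 CPM with DMSO. The KB742 libraries were above all 3 DMSO libraries at that time. At 8 h it was 10.0, 9.52 and 6.66 CPM with KB742, 11.3, 8.96 and 11.5 CPM with KI-ARv-03, and 5.57, 6.57 and 11.97 CPM with DMSO, again overlapping. As a description, the log2 difference of DMSO from 0 h was -4.75 by 2 h, -5.60 by 4 h and -6.29 by 8 h. A lincRNA, AL390957.1, lies antisense to the last exon of RGS2, and the strand used in counting is not given in the sources used here, so reads of the pair cannot be told apart.

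**Figure D1:**
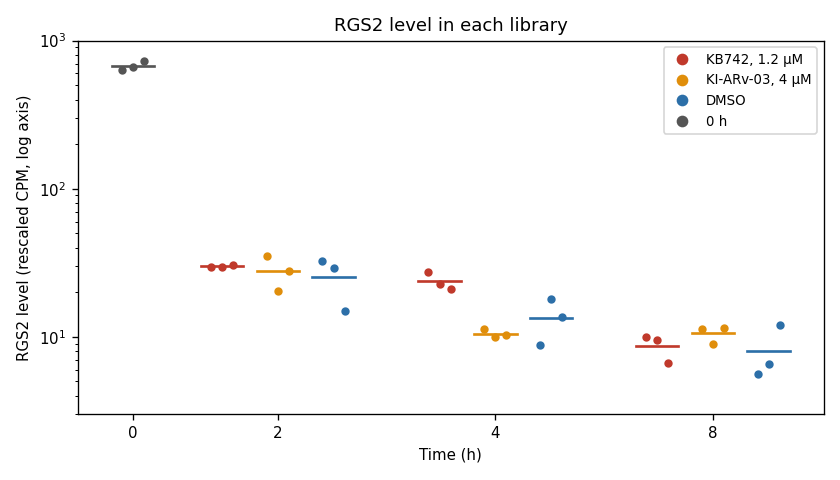
RGS2 level in each library (rescaled CPM, log axis) against time in hours; points are libraries, bars are means of 3, and at each time KB742, KI-ARv-03 and DMSO run left to right. The 0 h libraries lie at 635 to 724 CPM and every later library at or below 35.2 CPM.

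Of the phosphatases, DUSP4, a nuclear phosphatase of ERK, JNK and p38, was called lower with DMSO than at 0 h at 4 and 8 h, and DUSP6 was not. DUSP4 had 0.489, 0.397 and 0.757 CPM with DMSO at 4 h and 0, 0.773 and 1.84 CPM at 8 h, against 6.69, 6.10 and 16.1 CPM at 0 h. Both groups lay wholly below 0 h, on 4 reads each against 114 reads. The log2 difference was -2.67 ± 0.57 (SE, limma, adjusted p = 0.00152) at 4 h and -2.51 ± 0.57 (limma, adjusted p = 0.000782) at 8 h. With depth weights it was -3.35 at 8 h (limma, adjusted p = 0.00535), on voom's own log2 scale. DUSP6 had 8.31, 7.95 and 7.95 CPM with DMSO at 4 h and 4.33, 15.1 and 19.3 CPM at 8 h, against 16.7, 17.3 and 11.2 CPM at 0 h. The 8 h libraries spread across and beyond the 0 h range, and the log2 difference was -0.39 (95% interval -1.62 to 0.84).

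SPRY2 and SPRED1 were lower with DMSO than at 0 h as well. SPRY2, a brake on RAS activation, had 5.87, 2.78 and 4.16 CPM with DMSO at 4 h and 2.48, 1.55 and 2.76 CPM at 8 h, against 21.0, 21.4 and 9.08 CPM at 0 h. Its log2 difference was -1.74 ± 0.53 (limma, adjusted p = 0.0202) at 4 h and -2.41 ± 0.53 (limma, adjusted p = 0.000556) at 8 h. SPRY1 had 1.96, 1.19 and 1.89 CPM at 4 h and 1.24, 0.773 and 2.76 CPM at 8 h, against 4.56, 5.90 and 9.08 CPM at 0 h. The DMSO libraries of both genes at 4 and 8 h lay below all their 0 h libraries, and for SPRY1 this is the group that let it through the filter. SPRED1 had 19.1, 8.74 and 13.6 CPM at 4 h and 8.66, 8.89 and 10.1 CPM at 8 h, against 41.4, 35.2 and 25.4 CPM at 0 h. Its log2 difference was -1.27 ± 0.37 (limma, adjusted p = 0.0154) at 4 h and -1.75 ± 0.37 (limma, adjusted p = 0.000387) at 8 h. All of the SPRED1 libraries with DMSO at 4 and 8 h were below the 0 h libraries. SPRED2, a relative of SPRED1, had 4.40, 5.96 and 4.16 CPM at 4 h and 3.71, 5.41 and 2.76 CPM at 8 h, against 13.4, 15.0 and 0.519 CPM at 0 h. Its groups overlap with 0 h through replicate 3 there.

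In all, 3 of the 5 members tested against 0 h were called lower with DMSO at 4 h, where 14.6% of all genes were called lower and 20.3% in either direction. At 8 h the count was 3 of 5, against 29.1% of all genes called lower and 49.0% in either direction. At 2 h 0 of 5 were called by limma, against 2.64% of all genes called lower and 2.73% in either direction. There edgeR called 0, with 204 of all genes lower and 6 higher. DESeq2 called 1, with 465 of all genes lower and 19 higher. At an unadjusted p under 0.05 there were 3 of 5, all lower, against 10.3% of all genes lower. At 2 h the smallest adjusted p was 0.0781 (limma, SPRY2). With depth weights SPRY2 was called (limma, adjusted p = 0.0417), where 4.22% of all genes were called. At 4 h the DUSP4 call held without each replicate in turn. SPRED1 lost its call without DMSO replicate 2 (log2 -1.003; limma, adjusted p = 0.0961) and without 0 h replicate 1 (-1.12; limma, adjusted p = 0.0657). SPRY2 lost its call without DMSO replicate 2 or 3 or 0 h replicate 1 or 2, at log2 differences of -1.74 to -1.52 (limma, adjusted p 0.0527 to 0.0867). All 3 calls at 4 h held when the 3 libraries standing apart were left out. At 8 h all 3 calls held with depth weights and without each replicate in turn. On the deposited scaling the median of all genes moved from -0.14 to -0.73 at 8 h, and 91.9% of called genes were then lower, against 59.3%; falls are thus relative to a scaling. COL1A1, the one tested stromal marker, was higher with DMSO at 8 h than at 0 h (log2 1.94; limma, adjusted p = 0.00287), and its part in these results was not tested. Of the genes that failed the filter, DUSP1 had 0 reads in the DMSO libraries at 8 h, against 4.56, 6.30 and 0.260 CPM at 0 h. Replicate 3 at 0 h was itself below the floor of 3 reads over the DMSO group (0.567 CPM). The 0 h mean was 6.54 times that floor, a bound on the fall that allows for no error in the mean. That bound was 3.34-fold without DMSO replicate 2, 4.54-fold without DMSO replicate 1 and 4.25-fold without 0 h replicate 2. DUSP1, like RGS2, has an antisense neighbour (AC022217.3) over its last exon, whose reads cannot be told apart from its own. DUSP5 had 0 reads in those libraries and 6 reads at 0 h, and SPRY4 had 0, 0.386 and 1.84 CPM, against 4.87, 5.08 and 0.519 CPM at 0 h.

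**Figure D2:**
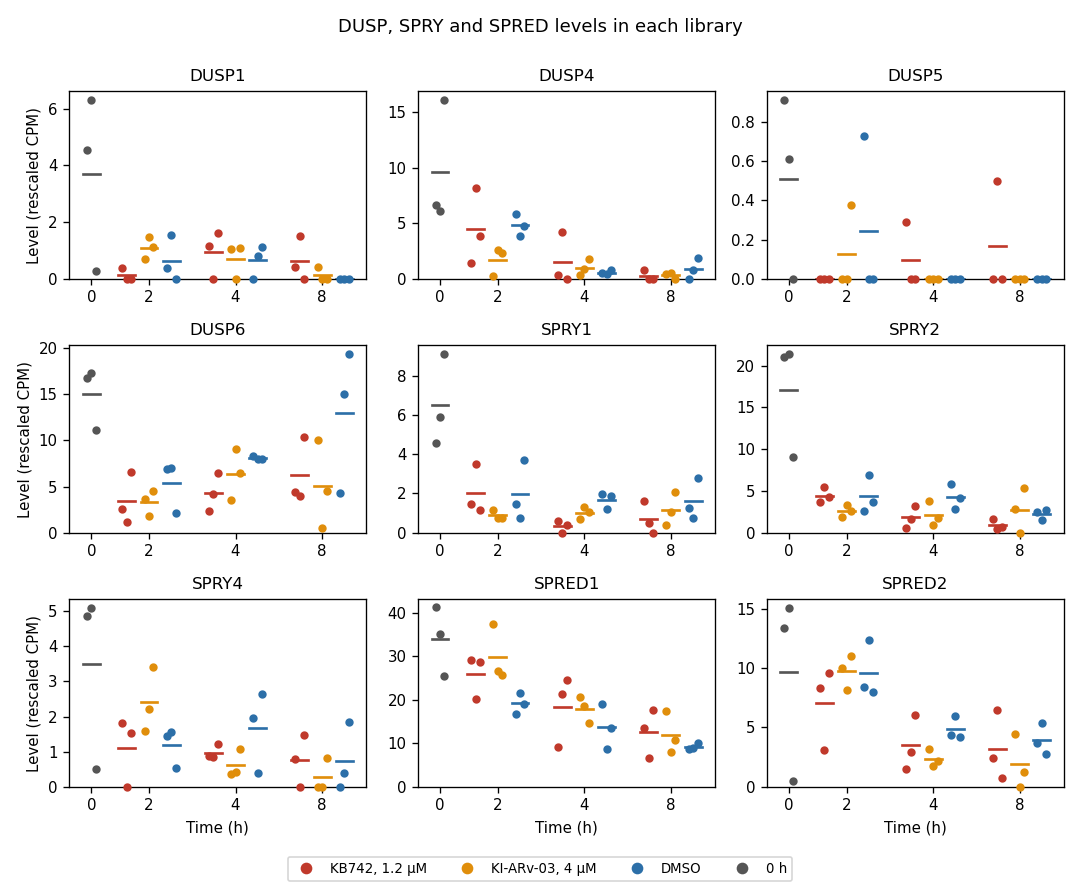
Levels of the other 9 genes in each library (rescaled CPM, linear axes that differ between panels) against time in hours; points are libraries and bars are means of 3. SPRY2 at 8 h with DMSO lies between 1.55 and 2.76 CPM, below all 0 h libraries, while DUSP6 at 8 h with DMSO spans 4.33 to 19.3 CPM.

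Did the CDK9 inhibitors change the levels relative to DMSO at the same time? Of the 7 tested genes, limma called 0 with either compound at any time, as did edgeR and DESeq2. At 2 h the background was 0.0263% of all genes called with KB742 and 0.0263% with KI-ARv-03, at 4 h 0.114% and 0.0700%, and at 8 h 1.84% and 2.91%. At an unadjusted p under 0.05 there were 0 and 1 of the 7 at 2 h, against 3.15% and 3.01% of all genes, with KB742 and KI-ARv-03 in that order. At 4 h there were 2 and 0 of the 7, against 4.87% and 3.96%, and at 8 h 0 and 1 of the 7, against 1586 and 1944 of 11425 genes. With depth weights, a fit on voom's own log2 scale, 0.359% and 0.560% of all genes were called at 8 h. With KB742 edgeR called 45 genes lower and 72 higher, and DESeq2 95 and 156. With KI-ARv-03 edgeR called 86 and 139, and DESeq2 149 and 331. The number of called genes at that time thus differed between fits, and the cause was not tested. The differences that reached an unadjusted p under 0.05 are given with their intervals. DUSP4 had 0.229, 2.58 and 2.27 CPM with KI-ARv-03 at 2 h, against 5.83, 3.87 and 4.78 CPM with DMSO, a log2 difference of -1.25 (95% interval -2.41 to -0.08; limma, adjusted p = 0.998). RGS2 differed by 0.82 with KB742 at 4 h (0.19 to 1.45; limma, adjusted p = 0.788). SPRY1 had 0.585, 0 and 0.404 CPM with KB742 at 4 h, against 1.96, 1.19 and 1.89 CPM with DMSO, a difference of -1.02 (-1.93 to -0.12; limma, adjusted p = 0.954). DUSP6 had 10.1, 0.527 and 4.53 CPM with KI-ARv-03 at 8 h, against 4.33, 15.1 and 19.3 CPM with DMSO, a difference of -1.41 (-2.63 to -0.18; limma, adjusted p = 0.208; with depth weights 0.334). The intervals of most other differences reach past 1 log2 unit in at least one direction, so moderate changes were not detectable at this depth. The effect of a compound at 8 h against its effect at 2 h was called for 0 of 7 genes with either, by limma, with 0 at an unadjusted p under 0.05 (background 0.00875% with each).

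**Figure D3:**
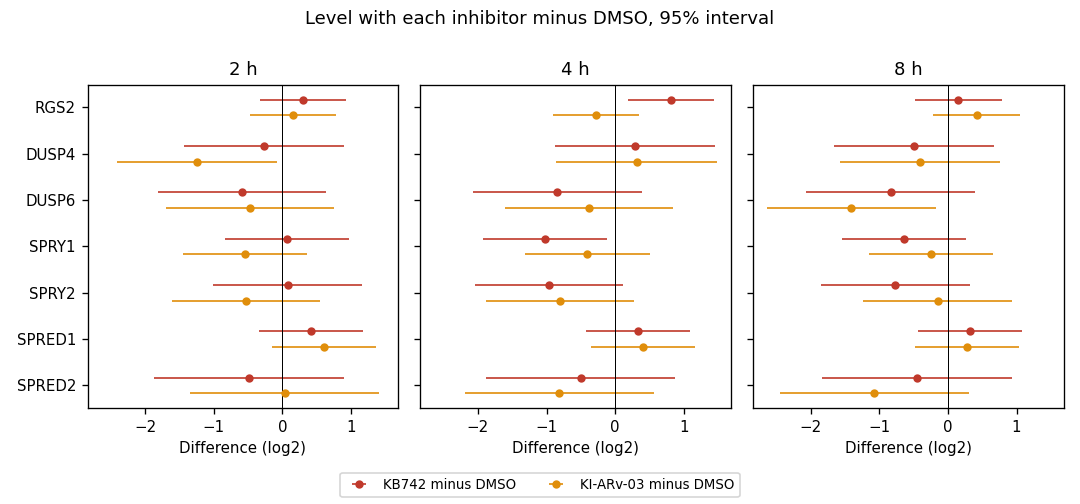
Log2 difference in level, compound minus DMSO, for the 7 tested genes at 2, 4 and 8 h; points are estimates and lines are 95% intervals. Most intervals span 0, the 4 exceptions being DUSP4 with KI-ARv-03 at 2 h, RGS2 and SPRY1 with KB742 at 4 h, and DUSP6 with KI-ARv-03 at 8 h.

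The doses of the compounds differ, so their values stand side by side without a comparison.

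Conversion, given in percent, is higher where more of the RNA was made with s4U present. The deposited value comes without the counts it was made from and is no whole share of the reads, so its counting error is unknown. Only values with at least 20 reads behind them were tested, which left few of the genes. RGS2 had a conversion of 0.792%, 0.857% and 0.888% at 0 h. At 2 h it was 6.76%, 5.09% and 2.28% with KB742, 4.01%, 4.91% and 1.98% with KI-ARv-03, and 5.65%, 6.14% and 10.4% with DMSO. All the 2 h libraries were above 0 h, and the KI-ARv-03 libraries were all below DMSO. That difference was -0.084 on the arcsine scale (95% interval -0.148 to -0.020; limma, adjusted p = 0.234), not called.

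DUSP6 had the highest conversion among the genes with enough reads. It was 27.0% and 29.5% in the 2 DMSO libraries usable at 4 h and 46.8% and 34.1% in the 2 usable at 8 h, against 6.31%, 3.35% and 3.39% at 0 h. The arcsine difference was 0.353 ± 0.047 (limma, adjusted p = 0.000316; not called on a log2 scale, adjusted p = 0.0530) at 4 h and 0.481 ± 0.047 (limma, adjusted p = 1.67e-05) at 8 h, and with depth weights 0.503 (limma, adjusted p = 3.68e-07) at 8 h. SPRED1 had 7.31%, 6.43% and 5.30% with DMSO at 4 h, against 1.79%, 1.72% and 0.306% at 0 h (0.147 ± 0.033; limma, adjusted p = 0.00182). SPRED2 had 5.10% and 4.39% in the 2 usable DMSO libraries at 2 h, against 0.125% and 0.382% at 0 h (0.171 ± 0.045; limma, adjusted p = 0.0448). The SPRED2 call was lost on a log2 scale (limma, adjusted p = 0.0527), with a replicate block, and without replicate 3 of either group (limma, adjusted p = 0.0720 without that of 0 h and 0.0654 without that of DMSO), and it held with depth weights (limma, adjusted p = 0.0214). Called higher were 1 of 2 tested members at 2 h, 2 of 2 at 4 h and 1 of 1 at 8 h, where 7.43%, 34.1% and 42.8% of all genes were called higher and 7.45%, 34.1% and 42.8% in either direction.

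SPRED1 conversion was lower in every inhibitor library than in every DMSO library at 4 and at 8 h, on few reads. At 4 h it was 2.63%, 2.21% and 2.20% with KB742 and 4.62%, 2.97% and 0.680% with KI-ARv-03, against 7.31%, 6.43% and 5.30% with DMSO. Neither compound's libraries overlapped with DMSO. The KB742 difference was -0.100 ± 0.033 (limma, adjusted p = 0.0434), the only call among 2 tested members where 16.1% of all genes were called. It was lost with depth weights (limma, adjusted p = 0.0744) and without each of the 6 replicates in turn (limma, adjusted p 0.0673 to 0.119). The KI-ARv-03 difference was -0.097 (limma, adjusted p = 0.0888), with 0 of 2 members called against 6.34% of all genes, and it was -0.126 (limma, adjusted p = 0.0168) without replicate 1 of KI-ARv-03, the library that stands apart. With depth weights its adjusted p was 0.232 (limma). At 2 h limma called 0 of 3 members with either compound, against 0.321% and 0.343% of all genes; no other tool was run on conversion. At an unadjusted p under 0.05 there were 0 and 1 of 3, against 14.4% and 13.2% of all genes.

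At 8 h no member had 2 values of 20 reads or more in both groups of a comparison. With a minimum of 10 reads, an alternative chosen after seeing the data, SPRED1 conversion was 3.26%, 0% and 4.39% with KB742 and 3.68%, 1.11% and 0.835% with KI-ARv-03, against 6.02%, 18.4% and 18.9% with DMSO. Every inhibitor library was below every DMSO library, on 13 to 43 reads with a compound and 14, 23 and 11 reads with DMSO. The difference was -0.250 ± 0.049 with KB742 (limma, adjusted p = 0.000524; with depth weights 0.00842) and -0.251 ± 0.049 with KI-ARv-03 (limma, adjusted p = 0.000438; with depth weights 0.00373). RGS2 and DUSP6 could also be tested at this minimum, and neither was called. RGS2 conversion differed by 0.101 with KB742 (limma, adjusted p = 0.0581; with depth weights 0.355) and 0.069 with KI-ARv-03 (limma, adjusted p = 0.153), the opposite direction to SPRED1. DUSP6 differed by -0.087 with KB742 (limma, adjusted p = 0.286) and -0.052 with KI-ARv-03 (limma, adjusted p = 0.537). At that time 34.0% and 36.6% of all genes were called at the minimum of 20 reads, nearly all lower. The KB742 effect on SPRED1 at 8 h less that at 2 h was -0.261 at this minimum (limma, adjusted p = 0.0385) and was not called with depth weights (limma, adjusted p = 0.0863). That with KI-ARv-03 was -0.199 (limma, adjusted p = 0.103). At the minimum of 20 reads, where no member could be tested for this, 3.89% and 4.06% of all genes were called. SPRED1 levels did not separate in the same libraries, at 13.6, 6.51 and 17.8 CPM with KB742 and 17.4, 7.90 and 10.7 CPM with KI-ARv-03, against 8.66, 8.89 and 10.1 CPM with DMSO.

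**Figure D4:**
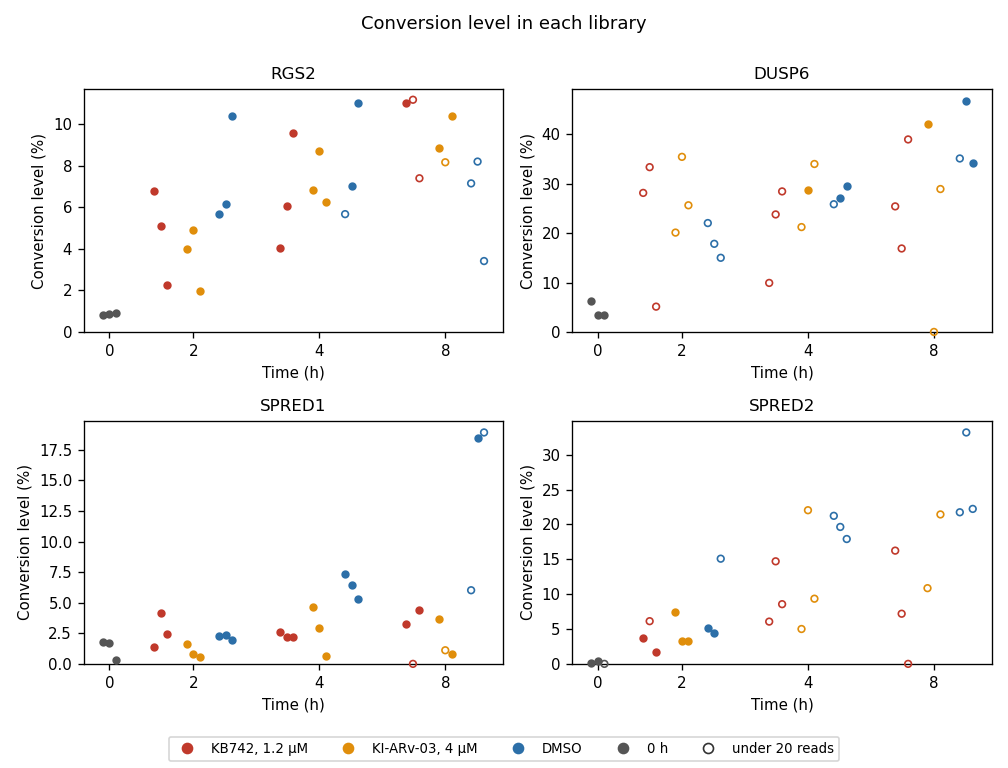
Conversion level (%) of RGS2, DUSP6, SPRED1 and SPRED2 in each library against time in hours, with KB742, KI-ARv-03 and DMSO left to right at each time; open points rest on fewer than 20 reads. SPRED1 at 4 h lies at 5.30% to 7.31% with DMSO, above every inhibitor library.

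The wider pathway was read from lists of related genes, for DMSO at 8 h against 0 h. The lists were chosen with earlier results of these data known, so their counts are a description only. The median of all genes was -0.14 log2, and 29.1% of all genes (3320 of 11425) were called lower and 2282 higher. These are the background of each list count that follows, apart from the counts with depth weights. Of 39 tested genes of the ERK cascade core, 7 were called lower and 2 higher, with a list median of -0.30. The scaffold gene SHOC2 had 4.03 ± 3.69 CPM with DMSO at 8 h, against 23.4 ± 5.22 CPM at 0 h (SD, n = 3 each), and PEA15, which binds ERK, was higher by 1.27 log2. Of 20 JNK and p38 cascade genes, 8 were lower and 2 higher (median -0.55), among them MAP3K4 (-2.38) and MAPK13 (1.22). Of 14 other dual-specificity phosphatases, 5 were lower and 1 higher (median -0.60), DUSP11 being lower by the lowest adjusted p. Neither SPRY3 nor SPRED3 was tested. Of 8 other RGS genes, 3 were lower and 3 higher (median -0.78), with RGS14 at -2.36 and RGS5 at 2.17. Of 25 G protein partners of RGS2, 2 were lower and 7 higher (median 0.28), among them GNB1, a G protein beta subunit gene, at 1.71.

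Of 11 ERK-responsive genes, 4 were lower and 2 higher (median -0.80). MYC had 0.541 ± 0.633 CPM with DMSO at 8 h, against 28.2 ± 13.6 CPM at 0 h, while EGR1 was higher by 2.04 log2. Of 20 other inducible feedback inhibitors, 16 were lower and 0 higher by limma (median -2.27), and NFKBIA, the inhibitor of NF-kB, had 1.37 ± 1.86 CPM, against 88.7 ± 7.07 CPM at 0 h. With depth weights the counts lower and higher were 5 and 2, 7 and 2, 5 and 1, 2 and 3, 2 and 7, 4 and 2, and 15 and 0 in the same order of lists. In that fit 3014 of all 11425 genes were called lower and 2363 higher. With the inhibitors at 8 h, MAP2K7, a kinase that activates JNK, had 28.2 ± 5.86 CPM with KB742 and 21.9 ± 3.26 CPM with KI-ARv-03, against 198 ± 139 CPM with DMSO (log2 -2.56 and -2.90; limma, adjusted p = 0.000862 and 0.000132). It was still called with depth weights (limma, adjusted p = 0.00541 and 0.00130). RASAL2 with KB742 and GAB1 and PTPN2 with KI-ARv-03 were called higher (limma, adjusted p = 0.0447, 0.0443 and 0.0419), and none of these 3 was called with depth weights.

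The genes whose mean log2 level over the 10 groups followed RGS2 most closely were GATA3, RAPGEF5 and FIGNL2, with Pearson r of 0.980, 0.973 and 0.972. For DUSP6 they were SIDT2, ZNF14 and PLAGL2, at 0.892, 0.881 and 0.862. For SPRED1 they were TSKU, HBP1 and DYRK2, at 0.989, 0.988 and 0.987. These describe 10 group means from the same libraries. RGS2 lay far higher at 0 h (mean 675 CPM) than in any later group (8.04 to 30.1 CPM), so its r values rest largely on the 0 h group. RAPGEF5 and FIGNL2 were also low, at 5.61 and 5.59 CPM at 0 h and 0.307 and 0 CPM with DMSO at 8 h.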

How the data were processed

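RNA of 22Rv1 cells was measured by SLAM-seq with 3′-end libraries in 30 samples, grouped by the time and compound in the titles. The deposited table lists transcripts by RefSeq identifier. The build was hg19 per the submitters' processing notes, with no aligner or conversion caller given in the sources used here. Its first measure is a signal that the authors headed CPM; every value was a whole multiple of 1 read (100% within 0.05), so reads could be counted back from it. Its second is a fraction that the authors headed conversion. Symbols came from RefSeq names, and 17184 genes had a read.

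Levels were scaled by TMM (edgeR 4.0.16), filtered with a minimum count of 10, and tested as log2(CPM + 1) with limma 3.58.1 (trended variance, R 4.3.3) in 1 fit of 10 groups, so differences understate changes of low genes. Conversion went through limma after an arcsine square-root transform, from at least 2 values of 20 reads or more per group. P-values were adjusted by Benjamini-Hochberg over all genes tested, and a call is an adjusted p under 0.05. DESeq2 1.42.0 was an alternative. Both limma fits were tested on simulated data. They recovered the changed genes. In the only comparison scored, KB742 against DMSO at 8 h, they made more false calls than the nominal rate at these unequal depths. The conversion fit made more than the level fit. In these simulated data, weights for depth brought this closer to nominal. The simulated levels had the same spread setting for every gene, and the simulated conversion had counting error only. Weights by reads suit such conversion by construction. The simulation therefore cannot show which fit is better for the real libraries. The unweighted fits were kept as planned, and the weighted fits (voom for levels, reads for conversion) were added as an alternative. SPRY1, which passed the filter only through 0 h, was left out of level tests against 0 h, a choice made after seeing the data. The members and gene lists were chosen with earlier results of these data known. All 10 members are named; from each list the gene called with the lowest adjusted p in each direction is named (1 such gene is not reported here), and for similar patterns the 3 genes with the highest correlation. Intervals cover 95%.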

Additional observations from a re-analysis of the deposited data

How the results depend on the processing

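For compound against DMSO, 0 members were called for level under each alternative tried. Under DMSO against 0 h, the level count of 0 at 2 h became 1 on the deposited scaling, 1 with depth weights and 1 with DESeq2. More of all 11425 genes were called there as well. On the deposited scaling 715 were lower and 11 higher, with depth weights 466 and 16, and with DESeq2 465 and 19. The main fit had 302 lower and 10 higher. The count of 3 at 4 h was 1 to 3 without a replicate. That of 3 at 8 h became 5 with no filter, where 8 members were tested. The added calls were DUSP1 and DUSP5, which had 0 reads with DMSO at 8 h, so they lie at the floor. Of all 17184 genes in that fit, 3494 were called lower and 2183 higher. The RGS2 difference at 8 h was -6.70 on the deposited scaling, and without a replicate it was -6.58 to -6.09. Conversion counts were less stable. The count of 1 at 2 h with DMSO was 0 on the log2 scale, with a replicate block, in each fit without a replicate, and when the 3 libraries standing apart were left out, and 3 with a minimum of 10 reads. The count of 2 at 4 h was 1 on the log2 scale, 4 with a minimum of 10 reads and 1 to 2 without a replicate. The count of 1 at 8 h was 2 with a minimum of 10 reads. At that minimum DUSP4, DUSP6, SPRED1 and SPRED2 were tested at 2 h. Those tested at 4 h were DUSP6, SPRED1, SPRED2 and SPRY2, and at 8 h DUSP6 and SPRED1. The share of all genes called at that minimum is not given here. For KB742 at 4 h the count of 1 was 0 on the log2 scale, with a minimum of 10 reads, with depth weights and without any 1 replicate. For KI-ARv-03 at 4 h the count of 0 was 1 when the same 3 were left out, and 0 to 1 without a replicate. Over all groups, same-numbered libraries did not deviate together on average (mean r -0.011 over 135 pairs, -0.587 to 0.613). Pairs of other numbers had a mean r of 0.006 (270 pairs, -0.676 to 0.663). Pairing within a single time or arm was not tested. The replicate block changed no other count. Over all genes, the calls at 8 h were 210 with KB742 and 333 with KI-ARv-03, and 41 and 64 in the fit with depth weights. The cause was not tested for any of these shifts. Low counts limit DUSP1, DUSP5 and SPRY4.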
